A study of Mus musculus with 5 samples.

Results

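Macrophage identity genes are transcripts used as markers of macrophages and monocytes, and here they were followed in dendritic cells that had been sorted away from macrophages. Some of them, such as Lyz2 and Gpnmb, were abundant in these sorted cells of both genotypes. The 10 genes Csf1r, Cd14, Adgre1, Lyz2, Gpnmb, Cd68, Mpeg1, Trem2, Cd163 and Ms4a7 were taken by symbol from a table of 27678 genes, and all 10 had a row. Complement genes, which macrophages also express, were not among them. RNA-seq compared 2 libraries from Etv3+/+ mice with 3 libraries from Etv3-/- mice, in which the gene for the ETS family transcription factor ETV3 is disrupted. Per the labels, marrow of both genotypes was kept 6 days in medium holding GM-CSF (20 ng/ml) together with IL-4 (5 ng/ml), and CD11c+ cells with intermediate CD11b, high MHC class II and no surface CD115 were then sorted, with a stated purity above 95%. The sources used here do not give strain, age, sex, the disrupted part of Etv3 or whether libraries came from separate animals, and p-values therefore cover only the spread among the 5 libraries, which may be technical.

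Marrow cultured with GM-CSF gives a mixture of dendritic cells and macrophages. Macrophages in such cultures depend on signals through the CSF1 receptor, carry F4/80 and CD14, and hold lysosomal proteins in quantity, while dendritic cells are known for the factor ZBTB46, the receptor FLT3 and, once mature, the chemokine receptor CCR7. CD115 is the protein product of Csf1r, so the sort selected against the protein of 1 of the 10 genes, in the same way in both genotypes. Of a list of 18 dendritic cell genes, 3 that define the lineage or its maturation were well detected in all 5 libraries. Zbtb46 lay between 9852 and 12295 normalized counts, Flt3 between 2952 and 4431 and Ccr7 between 213571 and 290394. On the same list Bcl11a was scarce in all libraries, at 15.4 to 124, and Kmo was scarce in Etv3+/+ alone. Kmo was at 136 and 0 in Etv3+/+ and at 902, 1333 and 1650 in Etv3-/- (limma adjusted p = 0.116). All 5 were named after their values were seen. A normalized count is the read count of a gene divided by 1 factor per library. In bulk samples such as these, fewer cells of a type and less RNA per cell cannot be told apart.

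The libraries held between 42983550 and 68253936 recovered reads. The targeted gene Etv3 (chromosome 3, 87525407 to 87540156, GRCm38) was at 23050 and 25447 normalized counts in Etv3+/+ and 18691, 20416 and 22856 in Etv3-/-, which does not check the knockout, and genotypes are used as labelled. Mitochondrial genes took between 1.1% and 6.64% of normalized counts, with both the second lowest and the highest share in Etv3+/+. GC content tracked the values of some libraries: over 13609 genes, Spearman's rho between GC content and deviation from the mean was -0.42 for the second Etv3+/+ library, 0.41 for the third Etv3-/- library and -0.10 to 0.09 for the other 3. Longest transcripts of the 10 genes had a GC content of 42.4% to 54.5%.

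ETV3 belongs to the ETS family, whose members bind DNA around the core GGAA, and PU.1, the ETS factor that directs macrophage development, binds the same core. The 250 bases before the RefSeq start site (GRCm38.p6) were scanned for 7 of the 10 genes (not for Csf1r, Cd14 and Adgre1). They are shown, 5′ to 3′, for 3 genes whose levels were higher in every Etv3-/- library and for Gpnmb, whose groups overlapped. Capitals mark GGAA on the strand shown or TTCC, which is GGAA on the other strand.
Trem2, chr17:48346151-48346400, plus strand: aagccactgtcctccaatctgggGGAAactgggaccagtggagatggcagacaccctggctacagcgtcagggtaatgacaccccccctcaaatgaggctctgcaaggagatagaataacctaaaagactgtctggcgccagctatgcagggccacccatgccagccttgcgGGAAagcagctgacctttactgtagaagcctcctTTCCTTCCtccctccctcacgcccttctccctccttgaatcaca
Lyz2, chr10:117282273-117282522, minus strand: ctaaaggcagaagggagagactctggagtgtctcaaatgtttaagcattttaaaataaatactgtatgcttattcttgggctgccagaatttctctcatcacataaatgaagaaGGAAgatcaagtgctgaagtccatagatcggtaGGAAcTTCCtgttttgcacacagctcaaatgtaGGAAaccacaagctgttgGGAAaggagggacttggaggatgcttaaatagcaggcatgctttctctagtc
Ms4a7, outer start site, chr19:11336147-11336396, minus strand: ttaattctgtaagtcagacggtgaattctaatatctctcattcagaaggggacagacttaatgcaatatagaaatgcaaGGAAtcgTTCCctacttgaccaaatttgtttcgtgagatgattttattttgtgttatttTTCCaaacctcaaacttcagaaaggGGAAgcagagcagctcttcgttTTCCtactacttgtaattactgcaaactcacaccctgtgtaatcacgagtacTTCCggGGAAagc
Gpnmb, chr6:49036268-49036517, plus strand: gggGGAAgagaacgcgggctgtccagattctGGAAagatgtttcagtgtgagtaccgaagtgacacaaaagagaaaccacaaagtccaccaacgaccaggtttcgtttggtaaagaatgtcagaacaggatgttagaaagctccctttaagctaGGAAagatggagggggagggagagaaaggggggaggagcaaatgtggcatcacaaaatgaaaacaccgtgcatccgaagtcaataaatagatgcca

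The window of Trem2 held 4 cores, that of Lyz2 5 and that of Ms4a7 7, or 3 at its inner start site. The windows of Cd163, Cd68, Gpnmb and Mpeg1 held 4, 3, 3 and 1. Over 32851 windows of this length in the RefSeq table the median was 3, and 93.4% held at least 1 core, so its presence sets none of these genes apart. The longer ETS octamer CCGGAAGT, which contains the core, was found on either strand in the outer Ms4a7 window alone among the 8 windows, and in 2.88% of all windows. A PU.1-like octamer, GAGGAAGT, was in none of the 8 and in 2.44% of all, and the E-box CACGTG, which MITF and its relatives bind, was in none of the 8 and in 6.02% of all. These are matches of letters and show no binding.

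The comparison of Etv3-/- with Etv3+/+ asks how loss of the factor alters these cells. For 6 of the 10 genes, Csf1r, Cd14, Adgre1, Lyz2, Trem2 and Ms4a7, every Etv3-/- library was above every Etv3+/+ library, with group means 1.6 to 4.65 times those of Etv3+/+. Among all 13813 genes tested, 16.7% had that order and 19.3% the opposite one, which none of the 10 had. None of the 10 passed the test (limma on log2 values, adjusted p under 0.05 over all genes), where 0.876% of tested genes were called higher and 0.319% lower. At an unadjusted p under 0.05 there were 6 higher and 0 lower, against 8.02% and 9.93% of all tested genes. On the recovered reads edgeR called none of the 10 (6 at an unadjusted p under 0.05), with 0.825% of tested genes called higher. DESeq2, which called 4.6% of tested genes higher and 3.86% lower, called the 6 genes without overlap, at adjusted p from 0.000526 (Csf1r) to 0.0326 (Lyz2). With the replicate number as a block, limma called 1.09% of tested genes higher and 0.854% lower, and Trem2 of the 10. The median log2 fold change of the 10 genes was 1.12, against -0.06 over all tested genes. It was also 1.12 with Cd163 set at its bound, but Cd163 lay above the median either way, so that check could not move it. With a filter at 50, which Cd163 did not pass, the median was 1.02. Values of Cd163 are low enough that it passed the filter on low values through Etv3-/- alone.

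**Figure D1:**
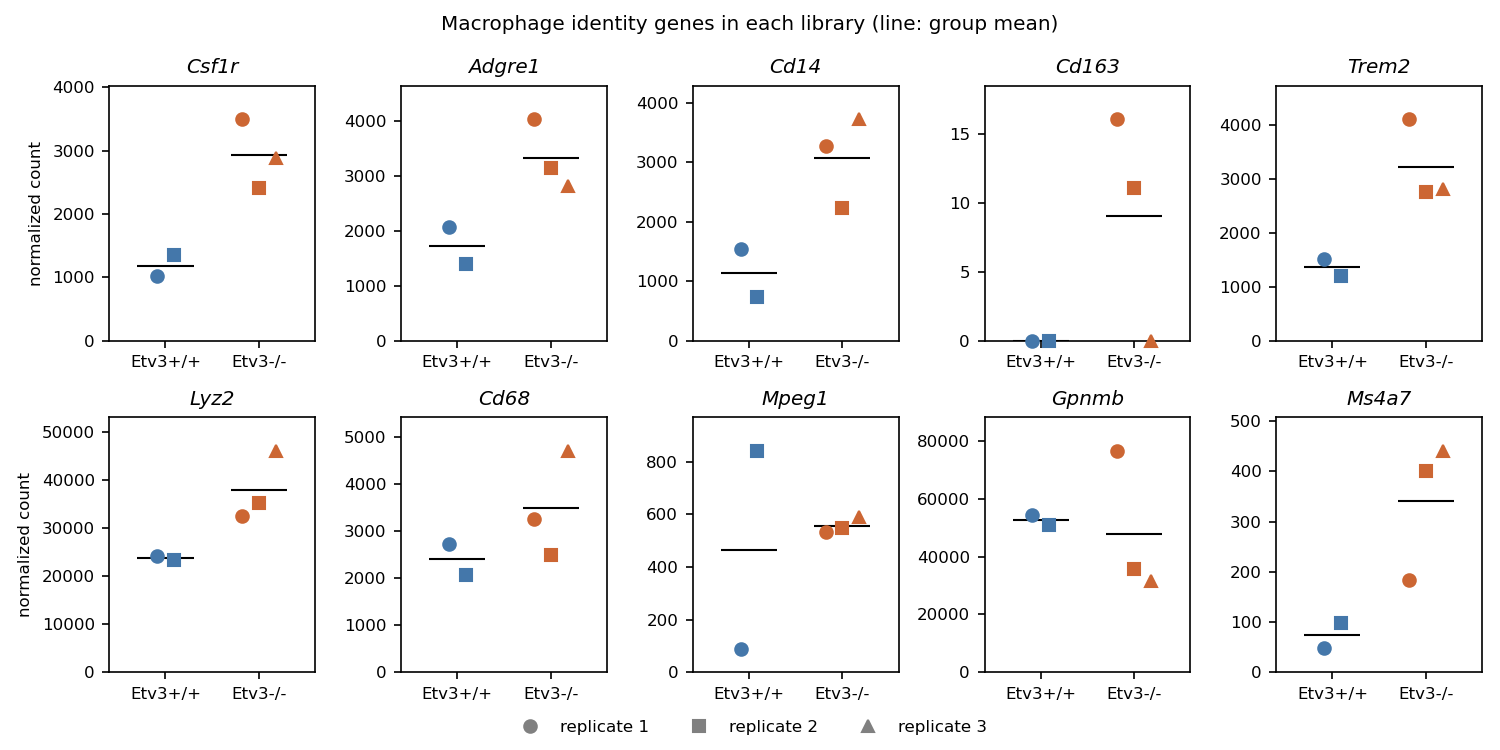
Normalized counts of the 10 genes in each library, on axes that start at 0; symbols give the replicate number and lines the group means. For Csf1r, Adgre1, Cd14, Trem2, Lyz2 and Ms4a7 the 3 Etv3-/- points lie above both Etv3+/+ points, while for Cd163, Cd68, Mpeg1 and Gpnmb the groups overlap.

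Csf1r encodes the receptor tyrosine kinase for CSF1 and IL-34, on which most macrophages depend (chromosome 18, 61100598 to 61132149, plus strand). Normalized counts of Csf1r were 1018 and 1348 in the control libraries, against 3493, 2403 and 2889 without Etv3. The lowest Etv3-/- library was thus above the higher Etv3+/+ library by more than the distance within Etv3+/+. Group means were 1183 ± 233 (SD, n = 2) and 2928 ± 547 (SD, n = 3), and the log2 fold change of 1.30 ± 0.27 (SE; 95% interval 0.69 to 1.92) had a limma adjusted p of 0.0683, the lowest adjusted p of the 10. The end of Csf1r overlaps Hmgxb3, a gene on the opposite strand, and 17.4% of the stretches of 50 bases in its longest transcript are shared with it. The sources used here do not say whether counting used strand, so part of the Csf1r reads may belong to Hmgxb3. Hmgxb3 itself, named for the overlap, was at 2323 and 1226 normalized counts in Etv3+/+ and at 2119, 1517 and 2084 in Etv3-/-, and its groups overlapped. Transcripts of the receptor were present in both genotypes although the sort took cells without its protein at the surface.

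The genes around the receptor were read from a list of 21 ligand, transcription and signalling genes, of which 20 were tested. Over all tested genes, 8.02% were higher and 9.93% lower at an unadjusted limma p under 0.05, and DESeq2 called 4.6% higher and 3.86% lower. On the list none was called (limma; 6 higher and 3 lower at an unadjusted p under 0.05, edgeR 0, DESeq2 3 higher and 1 lower), with a median log2 fold change of 0.20. The most abundant were Csf2rb and Csf2rb2, beta chains of the receptors for GM-CSF and related cytokines. Csf2rb was at 87319 ± 5046 and 55898 ± 8863 normalized counts in Etv3+/+ and Etv3-/- (limma adjusted p = 0.214), and Csf2rb2 at 20571 ± 1743 and 13631 ± 1553 (0.191). For both, every Etv3-/- library was below every Etv3+/+ library. Il34, named after its values were seen, had at most 0.932 normalized counts in any library.

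Adgre1 encodes F4/80, the adhesion receptor that gives the classic surface stain of mouse macrophages (chromosome 17, 57358691 to 57483527, plus strand). It was at 2069 and 1401 normalized counts in Etv3+/+ and at 4032, 3139 and 2822 in Etv3-/-. The groups did not overlap, and the log2 fold change of 0.95 ± 0.27 (95% interval 0.32 to 1.58) had a limma adjusted p of 0.141. Without Etv3+/+ replicate 2, the lower control, it was 0.67, and without Etv3+/+ replicate 1 it was 1.23.

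Receptors for microbial and lipid ligands came next. Cd14, which hands lipopolysaccharide to the TLR4 complex (chromosome 18, 36725067 to 36726798, minus strand), was at 1550 and 738 normalized counts in Etv3+/+ and at 3271, 2227 and 3722 in Etv3-/-. The control libraries differed by 2.1 times, yet the higher of them stayed under all Etv3-/- libraries. The log2 fold change of Cd14 was 1.49 ± 0.37 (95% interval 0.62 to 2.36, limma adjusted p = 0.112), and it was 2.02 without Etv3+/+ replicate 1 and 0.95 without Etv3+/+ replicate 2.

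On a list of 15 genes of the CD14 and TLR4 pathway, 14 were tested, 1 rose and 0 fell (edgeR 1 higher, DESeq2 3 higher), with a median log2 fold change of 0.50. Shares of all tested genes called higher were 0.876% by limma, 0.825% by edgeR and 4.6% by DESeq2. The gene that rose was Ly86, which encodes MD-1, the partner of the TLR4 homologue RP105. Ly86 was at 5802 and 8060 normalized counts in Etv3+/+ and at 19261, 18480 and 20858 in Etv3-/- (log2 fold change 1.51 ± 0.21, limma adjusted p = 0.026). All 3 Etv3-/- libraries stood far above both controls. Its partner gene Cd180, named here after its values were seen, was under the filter, with 4.66 and 3.42 normalized counts in Etv3+/+ and 11.8, 0 and 1.75 in Etv3-/-. Tlr4 itself, also named after its values were seen, was at 1224 and 3531 in Etv3+/+ and at 2381, 3794 and 1468 in Etv3-/-, so its groups overlapped.

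Trem2 encodes a receptor for lipids and lipoproteins that signals through the adaptor DAP12, the product of Tyrobp (chromosome 17, 48346401 to 48354147, plus strand). It was at 1522 and 1207 normalized counts in Etv3+/+ and at 4108, 2753 and 2824 in Etv3-/-. The groups did not overlap, and Etv3-/- replicate 1 stood above the other libraries. Means were 1365 ± 222 (SD, n = 2) and 3228 ± 763 (SD, n = 3), a log2 fold change of 1.23 ± 0.27 (95% interval 0.60 to 1.85, limma adjusted p = 0.08).

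All 17 genes of the TREM2 and DAP12 list were tested, and 1 rose and 0 fell (edgeR 0, DESeq2 7 higher), with a median log2 fold change of 0.59. DESeq2 called 4.6% of all tested genes higher, and limma 0.876%. Plcg2, the phospholipase that acts after DAP12 and SYK, rose from 2921 ± 445 to 7041 ± 1055 normalized counts (log2 fold change 1.27 ± 0.22, limma adjusted p = 0.0455), and edgeR gave it an adjusted p of 0.0565. Tyrobp, named after its values were seen, was at 16883 ± 1494 and 25611 ± 4004 (limma adjusted p = 0.221). For 9 of the 17 genes every Etv3-/- library was above every Etv3+/+ library, and for 2 every one was below, where all tested genes gave 16.7% and 19.3%. Among the 9 is Treml1, named after its values were seen, at 0 and 0.856 normalized counts in Etv3+/+ and 38.7, 64.4 and 21 in Etv3-/-. Treml1 passed the filter through Etv3-/- alone, and it also counts in the median of 0.59 and the 7 DESeq2 calls.

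Cd163, the scavenger receptor for haemoglobin bound to haptoglobin (chromosome 6, 124304656 to 124330527, plus strand), was at the edge of detection. It had 0 reads in both Etv3+/+ libraries and 15, 9 and 0 reads in the Etv3-/- libraries, or 0, 0, 16.1, 11.1 and 0 normalized counts. The Etv3-/- mean, 9.09 ± 8.26 normalized counts, was 6.78 times a floor of 3 reads over the Etv3+/+ group. That floor covers counting error in Etv3+/+ alone, and the Etv3-/- mean rests on few reads, so 6.78 is not a lower limit for the difference. With 1 of the 3 Etv3-/- libraries at 0, the groups overlapped and no difference was detectable at this depth (limma adjusted p = 0.574). Of all tested genes, 8.02% were higher and 9.93% lower at an unadjusted limma p under 0.05, and DESeq2 called 4.6% higher and 3.86% lower. On a list of 11 genes of haem and scavenger handling, 10 were tested and none was called (limma; 3 higher and 0 lower at an unadjusted p under 0.05, edgeR 0, DESeq2 3 higher), with a median of -0.44. Its most abundant genes were those of the ferritin chains, with Ftl1 at 244877 ± 55486 and 262813 ± 26747 normalized counts and Fth1 at 128717 ± 5456 and 205850 ± 16691 in Etv3+/+ and Etv3-/- (limma adjusted p = 0.875 and 0.232).

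Lyz2 encodes lysozyme M, the enzyme that cleaves bacterial cell walls and the locus behind the common myeloid Cre line (chromosome 10, 117277331 to 117282321, minus strand). It was at 24189 and 23333 normalized counts in Etv3+/+ and at 32616, 35290 and 46159 in Etv3-/-. The controls lay within 1.04 times of each other, closer than in 93.7% of tested genes with a mean of at least 100. The groups did not overlap, and the log2 fold change of 0.66 ± 0.23 (95% interval 0.14 to 1.19, limma adjusted p = 0.196) was the smallest among the 6 genes without overlap. Its neighbour and near copy Lyz1 shares 15.4% of the 50-base stretches of Lyz2, so reads of the pair may be split between them wrongly. Lyz1, named for the shared stretches, was at 0.932 and 28.2 normalized counts in Etv3+/+ and at 7.53, 4.95 and 4.38 in Etv3-/-, far under Lyz2.

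Cd68 encodes macrosialin, a lysosomal membrane protein of the LAMP family (chromosome 11, 69664213 to 69666153, minus strand). It was at 2727 and 2072 normalized counts in Etv3+/+ and at 3262, 2495 and 4700 in Etv3-/-. Etv3-/- replicate 2 lay between the controls, so the groups overlapped (log2 fold change 0.50 ± 0.31, 95% interval -0.21 to 1.21, limma adjusted p = 0.43). The interval leaves room for a rise of 2.32-fold or for a small loss.

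Mpeg1 encodes perforin-2, a pore-forming protein of phagocytes (chromosome 19, 12460779 to 12465283, plus strand). It showed the widest split between controls of the 9 genes that had reads in Etv3+/+. It was at 88.5 and 842 normalized counts in Etv3+/+, or 95 and 984 reads, and at 533, 547 and 591 in Etv3-/-. The 3 Etv3-/- libraries agreed within 1.11 times and lay between the controls, which differed by 9.51 times. Of tested genes with a mean of at least 100, 1.06% had controls that lay further apart. The fitted log2 difference was 1.02 ± 0.83, with a 95% interval from -0.90 to 2.95 (limma adjusted p = 0.55). It was -0.60 without Etv3+/+ replicate 1 and 2.64 without Etv3+/+ replicate 2, so its sign rests on a single control.

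Gpnmb encodes a glycoprotein of lysosomes and melanosomes that is switched on by MITF and its relatives TFEB and TFE3 (chromosome 6, 49036546 to 49070929, plus strand). It was the only one of the 10 with a negative log2 fold change, and with Lyz2 the most abundant. It was at 54301 and 51003 normalized counts in Etv3+/+ and at 76532, 35795 and 31485 in Etv3-/-. The Etv3-/- libraries lay on both sides of the controls, with replicate 1 above and replicates 2 and 3 below. The fitted log2 difference was -0.25 ± 0.38, with a 95% interval from -1.13 to 0.63 (limma adjusted p = 0.772), and -0.65 without Etv3-/- replicate 1.

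A list of 14 regulators and lysosome genes around MITF, TFEB and TFE3 was tested in full. Of all tested genes, 8.02% were higher and 9.93% lower at an unadjusted limma p under 0.05. On the list none was called (limma; 0 higher and 4 lower at an unadjusted p under 0.05, edgeR 0, DESeq2 0), with a median log2 fold change of -0.55 for its 14 genes. For 7 of them, Flcn, Fnip1, Fnip2, Rragc, Rragd, Lamp1 and Atp6v0d2, every Etv3-/- library was below every Etv3+/+ library, and 1, Lamtor1, had the opposite order, where all tested genes gave 19.3% and 16.7%. Flcn, Fnip1 and Fnip2 encode folliculin and its partners, and Rragc and Rragd GTPases through which nutrients hold TFEB and TFE3 in the cytoplasm. Lamp1 was at 51273 ± 1774 and 34417 ± 8993 normalized counts and Lamp2 at 29784 ± 14497 and 17679 ± 5694 (limma adjusted p = 0.281 and 0.374). On the list of lipid-associated macrophage genes, 16 of 16 were tested, 0 rose and 1 fell (edgeR and DESeq2 also 1 lower), with a median of -0.17. Limma and edgeR each called 0.319% of all tested genes lower, and DESeq2 3.86%. Abcg1, the cholesterol exporter, fell by 1.86 on the log2 scale, from 12784 ± 3559 to 3484 ± 521 normalized counts (limma adjusted p = 0.0229).

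Ms4a7 encodes a membrane protein with 4 spans that marks macrophages (chromosome 19, 11321039 to 11336146, minus strand). It was at 48.5 and 98.4 normalized counts in Etv3+/+ and at 183, 400 and 441 in Etv3-/-. The groups did not overlap, and the ratio of means, 4.65, was the highest of the 9 genes with reads in both groups. The fitted log2 difference was 2.19 ± 0.63, its 95% interval ran from 0.73 to 3.65 (limma adjusted p = 0.143), and the gene had 52 to 503 reads per library.

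Ms4a7 lies in a cluster of related genes on chromosome 19. Of 16 other genes of the MS4A family 9 were tested, 1 rose and 0 fell (edgeR 1 higher, DESeq2 2 higher), with a median log2 fold change of -0.49. Among all tested genes limma called 0.876% higher, edgeR 0.825% and DESeq2 4.6%. The gene that rose was Ms4a6d (11586604 to 11604849, minus strand), a myeloid member of the cluster. It was at 388 and 394 normalized counts in Etv3+/+ and at 2283, 2057 and 1820 in Etv3-/- (log2 fold change 2.38 ± 0.27, limma adjusted p = 0.0148). Ms4a6c, between the pair (11469366 to 11482192) and named after its values were seen, was at 72.7 and 29.1 in Etv3+/+ and at 256, 228 and 372 in Etv3-/- (log2 fold change 2.57 ± 0.63, limma adjusted p = 0.107). Ms4a6b and Ms4a4a of the same family, also named after their values were seen, overlapped between groups, with Ms4a4a at 3812 and 3728 in Etv3+/+ and at 2232, 5245 and 5827 in Etv3-/-. Ms4a4d, Ms4a5, Ms4a10, Ms4a13 and Ms4a14 had 0 reads in all 5 libraries. Mpeg1 lies 1.1 Mb from Ms4a7 on the same chromosome and had overlapping groups.

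**Figure D2:**
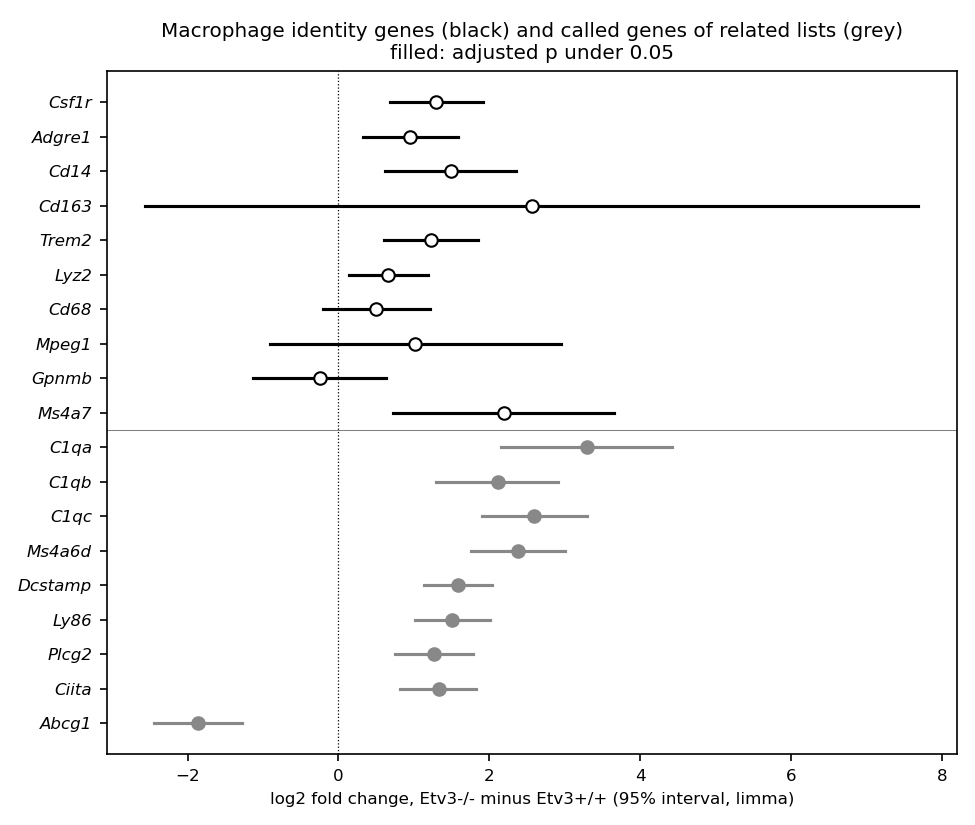
Log2 fold change (Etv3-/- minus Etv3+/+) with its 95% interval from limma for the 10 genes, in black, and for the genes of related lists that passed the threshold, in grey; filled points have an adjusted p under 0.05. All 10 black points are open; the intervals of 6 lie above 0, those of Cd163, Cd68, Mpeg1 and Gpnmb span 0, and of the 9 grey genes Abcg1 alone lies below 0.

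Levels of different genes were compared per kb of transcript, taking the median length of each gene's protein-coding transcripts, since long transcripts yield more reads. In Etv3+/+ Lyz2 led with 18056 ± 460 normalized counts per kb, followed by Gpnmb with 17176 ± 761, and their ranges did not overlap. Cd68 was at 2144 ± 414, Trem2 at 1273 ± 207, Cd14 at 697 ± 350, Adgre1 at 545 ± 149 and Csf1r at 276 ± 54.5. Mpeg1 at 107 ± 123 and Ms4a7 at 55.1 ± 26.5 closed the order before Cd163 at 0. Cd14 and Adgre1, and Mpeg1 and Ms4a7, were neighbours whose ranges overlapped. Among tested genes with a length, Lyz2 and Gpnmb stood at the 98.8th and 97.9th percentile of level per kb over all libraries, Csf1r at the 53.6th and Mpeg1 at the 28.6th.

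In Etv3-/- the order was the same except that Ms4a7, at 256 ± 104 per kb, stood above Mpeg1 at 129 ± 6.93. The ranges of Lyz2 (28892 ± 5451) and Gpnmb (15638 ± 8109) overlapped there, as did those of Cd68 (3115 ± 1000) and Trem2 (3011 ± 711). Which transcripts of each gene these cells make is not known from gene totals, and the length of Trem2 is 1072 bases by this rule and 4946 over all its annotated exons.

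**Figure D3:**
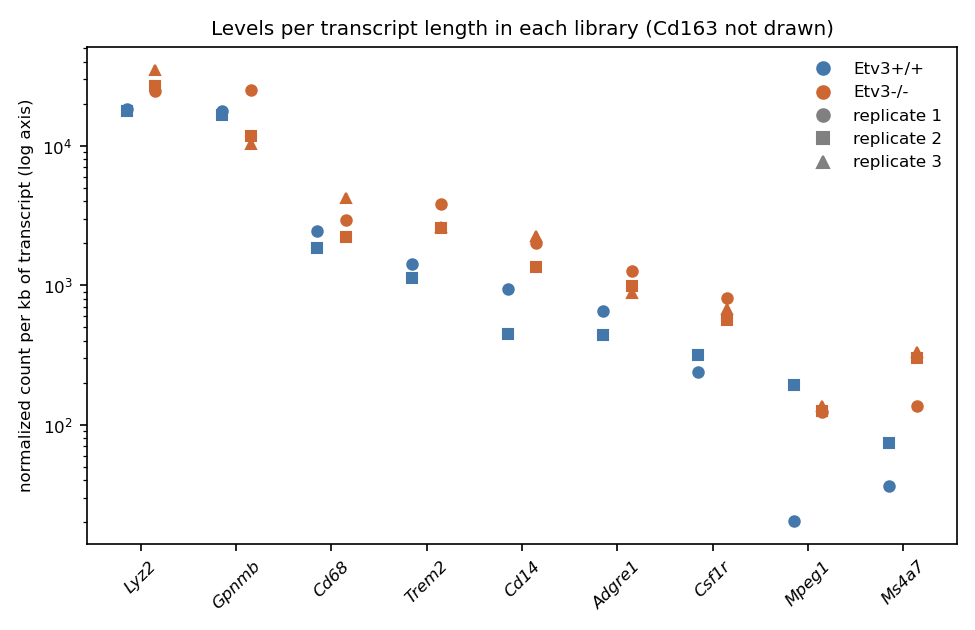
Normalized counts per kb of transcript (log axis) of 9 of the 10 genes, ordered by their Etv3+/+ mean, each symbol 1 library; Cd163, at 0 in both Etv3+/+ libraries, is not drawn. Lyz2 and Gpnmb lie at 10271 or more in every library, and Mpeg1 spans 20.4 to 194 in Etv3+/+ against 123 to 136 in Etv3-/-.

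The genes did not share a single pattern over the libraries. Of the 3 Etv3-/- libraries, replicate 1 had the highest value for 5 genes (Csf1r, Adgre1, Trem2, Cd163 and Gpnmb) and replicate 3 for the other 5 (Cd14, Lyz2, Cd68, Mpeg1 and Ms4a7), and replicate 2 for none. Centred on each gene's mean over the 5 libraries, the mean of the 10 was -0.81 and -0.59 in Etv3+/+ and 0.69, 0.42 and 0.29 in Etv3-/- on the log2 scale. Cd163, with 0 to 15 reads per library, entered that mean at -1.54 and -1.54 in Etv3+/+ and 2.56, 2.06 and -1.54 in Etv3-/-. The order of the Etv3-/- libraries in the mean profile, and the genes nearest to it, therefore rest in part on a few reads. Csf1r and Trem2 lay closest to that mean profile (Euclidean distance 0.353 and 0.448), and Cd163 and Mpeg1 farthest (3.31 and 2.18). Of 11779 other genes with a mean of at least 50, the 5 nearest to it were Jade2 (0.162), Rps18-ps3 (0.169), Timp1 (0.193), Slc25a33 (0.217) and Procr (0.222). Timp1, an inhibitor of matrix metalloproteinases, was at 963 ± 8.16 and 2338 ± 277 normalized counts (limma adjusted p = 0.0584), and Procr, the protein C receptor gene, at 2678 ± 251 and 5504 ± 468 (0.0635). A likeness over 5 libraries is a description and speaks to no shared function.

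**Figure D4:**
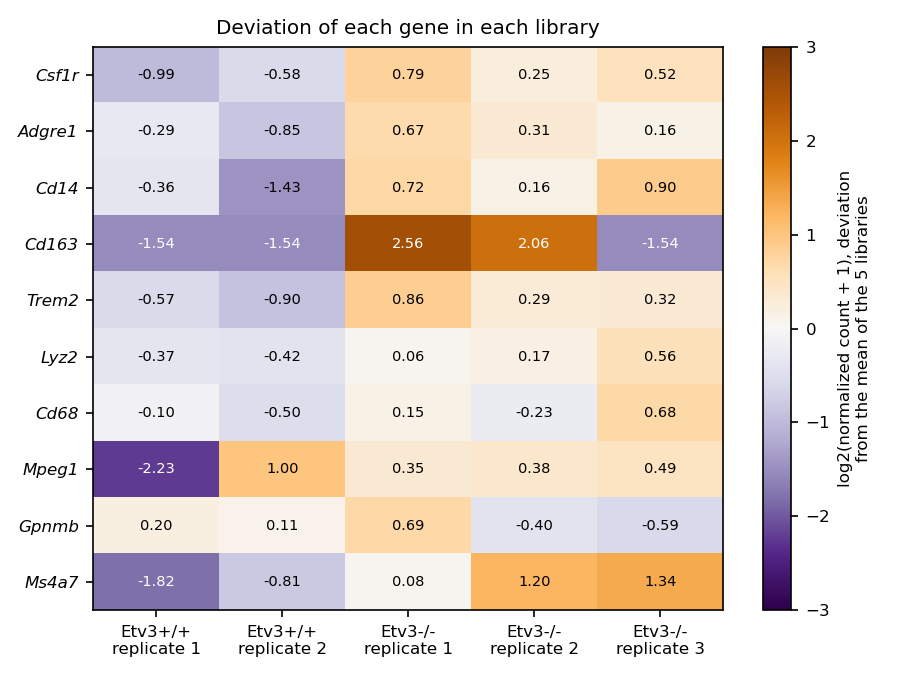
Deviation of log2(normalized count + 1) of each gene (rows) in each library (columns) from its mean over the 5 libraries. Csf1r, Adgre1, Cd14, Trem2, Lyz2 and Ms4a7 are negative in both Etv3+/+ libraries and positive in all 3 Etv3-/- libraries; Mpeg1 runs from -2.23 to 1.00 within Etv3+/+ and Gpnmb from -0.59 to 0.69 within Etv3-/-.

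Summed over the 10 genes, normalized counts were 87512 and 82042 in Etv3+/+ and 128046, 85060 and 95633 in Etv3-/-. Lyz2 and Gpnmb made up most of that sum, and the groups overlapped. The other 8 genes summed to 9023 and 7706 in Etv3+/+ and to 18899, 13975 and 17989 in Etv3-/-, 2.03 times as much on average, without overlap. Lyz2 and Gpnmb were set aside with their values known, and Gpnmb alone of the 10 had a negative log2 fold change (-0.25). As a share of all normalized counts these 8 genes took 0.0172% and 0.0132% in Etv3+/+ and 0.0364%, 0.0263% and 0.0344% in Etv3-/-.

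Other macrophage and monocyte genes were read from a list of 32, of which 26 were tested. None was called (limma; 8 higher and 1 lower at an unadjusted p under 0.05, edgeR 0, DESeq2 7 higher and 1 lower), and the median log2 fold change was 0.68. For 8 of them, among them Mertk, Fcgr3, Itgam, Msr1, Sirpa, Hmox1 and P2ry12, every Etv3-/- library was above every Etv3+/+ library, and for Selenop and Lgmn every one was below. All tested genes gave 16.7% and 19.3% for these orders, 8.02% higher and 9.93% lower at an unadjusted p under 0.05, and 4.6% higher and 3.86% lower with DESeq2. P2ry12 and Fcgr1 had 0 reads in both controls, and Siglec1, named after its values were seen, was at 0 and 9.41 normalized counts there. Each of them passed the filter through Etv3-/- alone. Their log2 fold changes of 6.51, 3.16 and 1.70 count in the median of 0.68, which is higher with them than without. P2ry12 also counts among the 8 genes without overlap and the 7 DESeq2 calls. Itgam, the gene of CD11b on which the sort also gated, was at 726 and 709 in Etv3+/+ and at 1732, 1637 and 1855 in Etv3-/- (limma adjusted p = 0.0635). Of the 2 most abundant, Sirpa was at 10256 ± 2152 and 19155 ± 4316 (0.138), and Lgmn, a lysosomal protease, at 22668 ± 7511 and 8013 ± 1618 (0.055). Vsig4, Timd4, Marco and Sall1, markers of resident macrophages, had 0 reads in every library, and Fcgr1, the CD64 gene that defines macrophages in many sorts, had 0, 0, 21.5, 0 and 30.7 normalized counts in Etv3+/+ replicates 1 and 2 and Etv3-/- replicates 1, 2 and 3. These 5 were named after their values were seen. The summed list was at 66166 and 58776 normalized counts in Etv3+/+ and at 69469, 61148 and 67114 in Etv3-/-, with overlapping groups. Its part in the values of the 10 genes was not tested.

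The complement genes C1qa, C1qb and C1qc, also made by macrophages, were called in the same fit, with log2 fold changes of 3.30, 2.11 and 2.60. On a list of 12 osteoclast genes, chosen because CSF1R and DAP12 also serve those cells, 10 were tested, 1 rose and 0 fell (edgeR 1 higher, DESeq2 2 higher and 1 lower), with a median of -0.31. Limma called 0.876% of all tested genes higher and 0.319% lower, edgeR 0.825% and 0.319%, and DESeq2 4.6% and 3.86%. Dcstamp, a membrane protein needed for the fusion of osteoclasts and also made by dendritic cells, was at 2664 and 2967 normalized counts in Etv3+/+ and at 8364, 7878 and 9131 in Etv3-/- (log2 fold change 1.59 ± 0.19, limma adjusted p = 0.0172). Of 17 genes closest in family to the 10, such as Adgre5, Pmel and Lamp3, 12 were tested and none was called (limma; 1 higher and 0 lower at an unadjusted p under 0.05, edgeR 0, DESeq2 1 higher), with a median of -0.17. At that unadjusted limma threshold 8.02% of all tested genes were higher and 9.93% lower. Prf1 of this list, named after its values were seen, had 0 reads in both controls. It passed the filter through Etv3-/- alone and counts in the median of -0.17.

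Among 18 dendritic cell genes all were tested, 1 rose and 0 fell (edgeR 2 higher, DESeq2 4 higher), with a median of 0.35. At an unadjusted limma p under 0.05, 5 were higher and 0 lower, against 8.02% and 9.93% of all tested genes. Every Etv3-/- library was above every Etv3+/+ library for 8 of the 18 and below for 1, against 16.7% and 19.3%. Limma called 0.876% of all tested genes higher, edgeR 0.825% and DESeq2 4.6%. Ciita, the master regulator of class II genes, rose from 5636 ± 1350 to 13949 ± 1049 normalized counts (log2 fold change 1.33 ± 0.22, limma adjusted p = 0.038). The list summed to 1980405 and 1487670 normalized counts in Etv3+/+ and to 2733191, 2746464 and 3588406 in Etv3-/-, and Cd74, H2-Ab1, H2-Aa and H2-Eb1, of class II antigen presentation, made up most of that sum. Without these 4 genes the list summed to 708446 and 603518 in Etv3+/+ and to 653940, 635024 and 744616 in Etv3-/-, with overlapping groups. Irf8, a transcription factor of the lineage named after its values were seen, was at 124608 and 94969 in Etv3+/+ and at 88210, 82795 and 88595 in Etv3-/- (limma adjusted p = 0.505).

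Marker lists of further cell types had medians of both signs, and none of their genes was called by limma or edgeR. Over all tested genes 8.02% were higher and 9.93% lower at an unadjusted p under 0.05, and DESeq2 called 4.6% higher and 3.86% lower. The 10 B cell genes had a median of 1.67 (5 higher and 0 lower at an unadjusted p under 0.05, DESeq2 4 higher), with Blnk, which myeloid cells also express, at 7805 ± 123 and 15721 ± 5077 normalized counts and Ighm at 1025 ± 309 and 1771 ± 430. The 12 neutrophil genes had a median of -0.67 (0 at an unadjusted p under 0.05, DESeq2 0), with S100a8 at 24182 ± 11466 and 13569 ± 10727 and S100a9 at 11527 ± 850 and 11750 ± 12308. The 9 mast cell and basophil genes had a median of -0.33 (0 at an unadjusted p under 0.05, DESeq2 0), with Prss34 at 7562 ± 4678 and 8325 ± 2363 and Kit at 2572 ± 671 and 2535 ± 1172. Of 10 T and NK cell genes 9 were tested, with a median of -1.14 (0 higher and 4 lower at an unadjusted p under 0.05, DESeq2 1 lower), Il7r at 39426 ± 22102 and 15868 ± 6234 and Gzma at 4787 ± 275 and 1227 ± 993. Sums of the B cell list were 10165 and 9515 in Etv3+/+ and 15953 to 24505 in Etv3-/-, those of the neutrophil list 53682 and 56592 against 15628 to 77048, and those of the mast cell list 19916 and 11575 against 12200 to 18548. Those of the T and NK cell list were 33190 and 65042 against 15049 to 28969. The part of these lists in the values of the 10 genes was not tested.

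The 6 genes without overlap had positive log2 fold changes under all 18 alternatives. The log2 fold change of Csf1r lay between 1.10 and 1.51 over 18 alternatives, that of Trem2 between 1.04 and 1.39 and of Lyz2 between 0.51 and 0.76. That of Ms4a7 lay between 1.68 and 2.69, of Adgre1 between 0.67 and 1.23 and of Cd14 between 0.95 and 2.02. With a correction for GC content and length the values were 1.20 for Csf1r, 1.03 for Adgre1, 1.17 for Trem2, 0.57 for Lyz2 and 2.62 for Ms4a7, and none of the 10 was called. Cd68 went from 0.50 to 0.27 with that correction. Calls on the genes of the related lists were lost, in part or in full, when 1 library was left out and the fits held fewer libraries. All 9 log2 fold changes kept their sign. Without Etv3-/- replicate 1, 2 or 3, limma called 0, 2 and 7 of all tested genes higher and 0, 0 and 3 lower. Without Etv3+/+ replicate 1, 2 of the 9 calls were left (Ms4a6d and C1qc), without Etv3+/+ replicate 2 there were 5 (with Abcg1, Ly86 and Dcstamp), and without any 1 of the 3 Etv3-/- libraries there was none, with adjusted p up to 0.157.

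**Figure D5:**
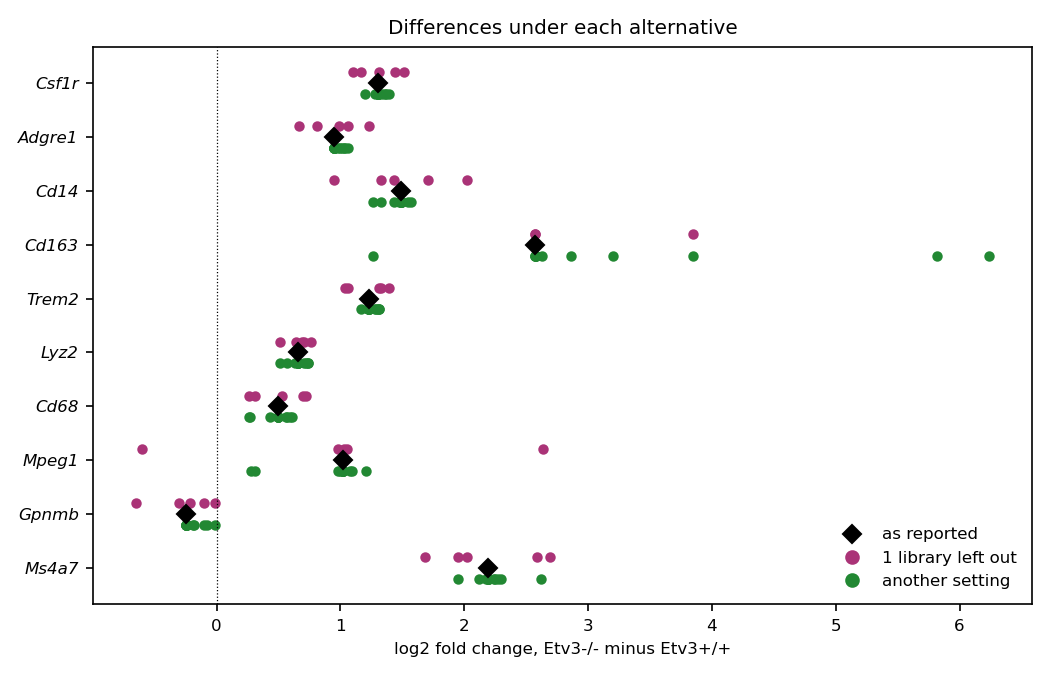
Log2 fold change of each gene as reported (diamonds), with 1 library left out (purple) and under each other setting (green). The points of Csf1r, Trem2 and Lyz2 stay within 1 log2 unit and above 0, those of Mpeg1 run from -0.60 to 2.64 as controls are left out, and those of Cd163 up to 6.24 with edgeR.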

How the data were processed

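The authors deposited 1 table of normalized counts (a signal scaled by 1 size factor per library) for 2 Etv3+/+ and 3 Etv3-/- libraries. The submitters' processing notes name Trimmomatic 0.36, STAR 2.7.3a, featureCounts from Subread 1.6.3, DESeq2 1.26.0 and the build mm10. The sources used here do not give strand handling or the annotation, so overlapping genes and near copies are uncertain. Each library's values were whole multiples of 1 step for 100% of entries (tolerance 0.1 read), which gave back whole reads.

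Genes with a normalized count of at least 10 in at least 2 libraries were tested with limma 3.58.1 (R 4.3.3, trended prior, 2-sided) on log2(normalized count + 1), with Benjamini-Hochberg adjustment over 13813 genes and calls at an adjusted p under 0.05. On this scale the change of a low gene is understated. As alternatives, edgeR 4.0.16 on the recovered reads called 114 genes higher and 44 lower, and DESeq2 1.42.0, another pseudocount, filter, scaling or prior, sample weights, a replicate block, a correction for GC content and length, and leaving out each library were also run. A floor of 3 reads over a group stood in for 0 and covers counting error in that group only. The 95% intervals come from the spread among the libraries. An exact permutation test over 10 splits cannot go below 0.1 and was not used. The fits were tested on simulated data.

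The 10 genes and all lists were chosen with earlier results of these data known. Genes named are the 10, Etv3, up to 4 called genes per list (or the 2 most abundant where none was called) and the 5 nearest profiles. Others were named for a gene they overlap or resemble, for the sort, or after their values were seen, as were genes listed by the order of their groups. Positions are GRCm38 (GENCODE M21) and promoter windows RefSeq. A gene of a marker list is not reported here.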

Additional observations from a re-analysis of the deposited data

How the results depend on the processing

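With 2 controls the counts over all genes moved with the settings. The 121 genes higher and 44 lower became 44 higher without the trended prior, 70 lower with a pseudocount of 5, 636 and 533 with DESeq2, and 225 and 106 with the correction for GC content and length. Leaving out 1 library gave 0 to 73 higher and 0 to 7 lower; a lone control was then assumed to vary like the other group. Of the 10 macrophage genes, 6 were called higher by DESeq2 and 0 under 16 of the other 17 alternatives. With a replicate block 151 genes were higher and 118 lower, and 1 of the 10, Trem2, was called. The replicate numbers were not shown to pair the samples: deviations of same-numbered libraries correlated at -0.03 and 0.04 over 2 shared numbers. Mpeg1 reversed to -0.60 without Etv3+/+ replicate 1 and was 2.64 without Etv3+/+ replicate 2. The cause was not tested, other than that fewer libraries entered where some were left out. The other 9 genes kept their direction where a value could be had. Cd163 gave none with a filter at 50 or without Etv3-/- replicate 1 or 2, since it did not pass the filter. Depth limits Cd163, with 0 to 15 reads per library.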
